A study of Rattus norvegicus with 8 samples.

Results

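The 10 genes described here are immediate early genes that neuronal activity induces: *Fos*, *Fosb*, *Junb*, *Egr1*, *Egr2*, *Nr4a1*, *Npas4*, *Arc*, *Dusp1* and *Ier2*. They were chosen by name, and every probe other than a control probe was taken whose RefSeq accession maps to one of these rat symbols. This gave 12 probes for the 10 genes, out of 16678 genes that could be named on the array. *Egr2* and *Ier2* have a bright and a dim probe each, and the brighter one stands for the gene in every count of genes.

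The study asked how overexpression of α-synuclein (αSyn), a synaptic protein that accumulates in Parkinson's disease, alters gene expression in the *substantia nigra* (SN). Female Sprague-Dawley rats, 3 months old, received an adeno-associated virus of serotype 6 into the SN of 1 side, and RNA was taken from the dissected SN of that side after 20 weeks. The AAV-αSyn group (4 arrays) received the wild-type human gene at 5.2e10 vector genomes per µL, and the AAV-Null group (4 arrays) received the control vector at 5.3e9. The titres differ between the groups, so that vector dose and transgene cannot be told apart, and the promoter that drives the transgene is not given in the sources used here. The rats were killed by decapitation under isoflurane, according to the methods. The methods state 3 replicates per group, whereas all 8 labelled arrays were used here. The labels do not say that the arrays of a group are separate animals, although the methods call them biological replicates.

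Immediate early genes are switched on within minutes of synaptic stimulation, without the need for new protein, and their mRNA is short-lived. Calcium entry and ERK signalling activate CREB at cyclic AMP response elements (CRE) and serum response factor at CArG boxes of their promoters. Most members are transcription factors that pass the signal to slower genes, while others act at synapses or switch the signal off. Their mRNA is therefore widely used to mark neurons that were recently active.

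The elements that carry this signal can be read in the members' own promoters. RefSeq promoters of the rat build GRCr8, from 250 bases before to 50 bases after the start of the gene, were searched on both strands for the full CRE TGACGTCA, for its core TGACG (which also lies inside the full site), for the CArG box and for the AP-1 site TGANTCA. A promoter was matched for 8 of the members. The core was found in 6 of these 8 and in 21.2% of all 33469 promoters, the full site in 2 (*Dusp1* and *Ier2*) and in 1.83% of all, and the CArG box in 2 (*Egr1* and *Egr2*) and in 1.64% of all. The AP-1 site was found in 0 of the 8 and in 7.33% of all promoters. These are matches of letters and not measured binding. The stretches shown are those of 5 members whose arrays are described in the following paragraphs, and they run 5′ to 3′ on the strand of the gene. Capitals mark the full CRE or its core (read as CGTCA where it lies on the other strand), and in *Egr2* also the CArG box.
Nr4a1 (chr7:134259888-134260101, plus strand, 250 to 37 bases before the start, 4 cores): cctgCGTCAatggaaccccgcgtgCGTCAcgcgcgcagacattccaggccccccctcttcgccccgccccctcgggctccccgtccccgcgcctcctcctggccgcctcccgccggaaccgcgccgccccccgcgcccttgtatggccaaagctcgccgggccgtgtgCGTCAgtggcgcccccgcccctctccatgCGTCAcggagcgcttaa
Junb (chr19:40080959-40080987, plus strand, 167 to 139 bases before the start, 1 core): gcttcctgacagTGACGcgagccgcctcc
Egr2 (chr20:21054491-21054536, minus strand, 95 to 50 bases before the start, a CArG box and a core): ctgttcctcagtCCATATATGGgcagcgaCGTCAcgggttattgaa
Dusp1 (chr10:17184669-17184748, plus strand, 184 to 105 bases before the start, a core and a full site): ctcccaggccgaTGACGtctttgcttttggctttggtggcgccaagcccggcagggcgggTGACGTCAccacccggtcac
Ier2 (chr19:40399295-40399326, plus strand, 78 to 47 bases before the start, 1 full site): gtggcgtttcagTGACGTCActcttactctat

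Cy3 intensities were read from 58717 spots per array on 1 slide in 1 scan, and on each array 74.8% to 77.5% of them were called well above background. Values are log2 intensities after quantile normalisation, on which a difference of 1 is a doubling. They compare arrays for 1 probe and not 1 probe with another. At 33853 probes the groups were compared by limma's moderated test, two-sided, with Benjamini–Hochberg adjustment over all of them. *Th*, the enzyme that makes dopamine's precursor, was bright on all 8 arrays (15.88 to 16.70), as tissue that holds SN dopamine neurons would be.

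None of the 11 member probes tested passed the adjustment, and their lowest adjusted p was 0.555. Over all probes 5 passed, or 0.0148%. At an unadjusted p under 0.05 there were 3 of the 11, namely *Nr4a1*, *Fos* and *Junb*, all with the higher mean in the AAV-αSyn group, where 5.64% of all probes reached this level. The groups of arrays did not overlap for 1 of the 11, *Nr4a1*, against 3.83% of all probes. Of the 9 genes tested, 7 had the higher mean in the AAV-αSyn group and 2 had the lower. Their median log2 fold change was 0.25, against 0.00825 over all probes, and it was 0.114 without AAV-Null replicate 4, 0.117 without AAV-αSyn replicate 2 and 0.123 without AAV-αSyn replicate 3. *Npas4* was not well above background on any array and was not tested. When replicate 2 or replicate 3 of the AAV-αSyn group was left out, the count at an unadjusted p under 0.05 was 1 instead of 3.

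**Figure D1:**
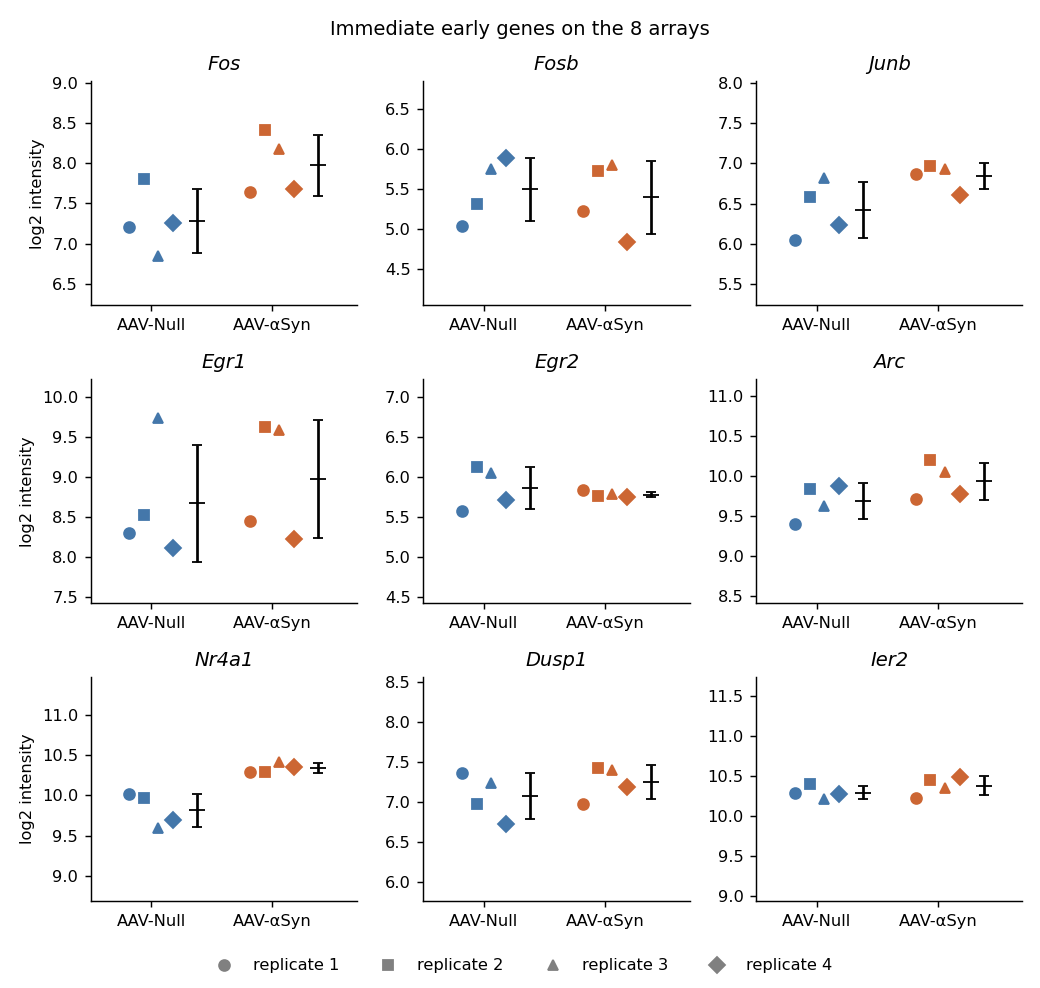
Log2 intensity of the 9 members above background on each of the 8 arrays, with 1 symbol per replicate number and the group mean ± SD (n = 4) beside the points; every panel spans the same log2 range. *Nr4a1* is the gene whose groups do not overlap, and *Egr1* falls into 3 high and 5 low arrays drawn from both groups.

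*Nr4a1* (probe A_42_P682589, NM_024388) encodes the orphan nuclear receptor NUR77, which is induced by activity in dopamine target regions and in many other tissues. On the AAV-Null arrays its log2 intensity was 10.02, 9.96, 9.60 and 9.69 in replicates 1 to 4, and on the AAV-αSyn arrays it was 10.29, 10.30, 10.42 and 10.35. Every AAV-αSyn array therefore lay above every AAV-Null array, and the AAV-αSyn arrays were within 0.13 of each other where the AAV-Null arrays spanned 0.42. The AAV-Null mean was 9.82 ± 0.21 (SD, n = 4) and the AAV-αSyn mean 10.34 ± 0.062 (SD, n = 4). The log2 fold change was 0.52 (standard error 0.11, 95% interval 0.27 to 0.77), which is 1.44-fold (1.21 to 1.71). The p from limma was 0.00135 before and 0.555 after adjustment over all probes, so that the difference did not pass. The exact permutation test gave 0.0286, two-sided, the smallest p that the 70 splits of 8 arrays allow.

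The probe is printed as 10 spots on each array, which gives a measure of the array's own error. Spots of 1 array differed by an SD of 0.061, so that the mean of an array has a standard error of 0.020, against an SD of 0.15 between arrays of a group. The last 2 numbers of each array's barcode were read as the side and the row of the slide, which the sample labels do not name. Read so, there are 2 sides with 2 arrays of each group on each. The AAV-αSyn minus AAV-Null difference of *Nr4a1* was 0.53 on one and 0.52 on the other. Within the 4 rows, each of which holds 1 array of each group, it was 0.27, 0.33, 0.83 and 0.66. The sign was the same in all 4 rows and on both sides, as it must be where the groups do not overlap.

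*Fos* (A_64_P131051, NM_022197) encodes the AP-1 subunit most used as a marker of active neurons. Its log2 intensity was 7.21, 7.81, 6.84 and 7.25 on the AAV-Null arrays and 7.64, 8.41, 8.18 and 7.68 on the AAV-αSyn arrays. AAV-Null replicate 2 reached above AAV-αSyn replicates 1 and 4, so that the groups overlapped, while AAV-αSyn replicates 2 and 3 were the highest of all 8. The AAV-Null mean was 7.28 ± 0.40 and the AAV-αSyn mean 7.98 ± 0.38 (SD, n = 4 arrays each). The difference of the means was 0.70 on the log2 scale (standard error 0.24, 95% interval 0.14 to 1.26) or 1.63-fold (1.10 to 2.40). The p from limma was 0.0205 before and 0.787 after adjustment, and the exact permutation test gave 0.0857, two-sided. Without AAV-Null replicate 3, AAV-αSyn replicate 2 or AAV-αSyn replicate 3 the unadjusted p was 0.0569, 0.0539 and 0.0526. With arrays weighted by quality the difference was 0.46 and the unadjusted p from limma 0.0788. Without weights, the difference of 0.70 varied with slide position. The difference was 0.38 and 1.02 on the sides of the slide and 0.43, 0.61, 1.34 and 0.42 in the rows. Of the members with a difference above 0.5, *Fos* had the wider interval.

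*Junb* (A_43_P12125, NM_021836), a partner of FOS in AP-1, was at 6.04, 6.58, 6.82 and 6.23 on the AAV-Null arrays. On the AAV-αSyn arrays it was at 6.87, 6.97, 6.93 and 6.60. Only AAV-αSyn replicate 4 lay within the range of the AAV-Null arrays. The AAV-Null mean was 6.42 ± 0.35 and the AAV-αSyn mean 6.84 ± 0.16 (SD, n = 4 arrays each). The AAV-αSyn mean exceeded the AAV-Null mean by 0.43 on the log2 scale (standard error 0.17, 95% interval 0.023 to 0.83). The p from limma was 0.0408 before and 0.862 after adjustment, and the exact permutation test gave 0.0571, two-sided. With 1 array left out the unadjusted p stayed under 0.05 in 3 of 8 fits. Without AAV-Null replicate 1 or 4 it was 0.101 in both cases, and without AAV-αSyn replicate 1, 2 or 3 it was 0.0757, 0.0935 and 0.0877. It was 0.0844 when arrays were scaled by their 75th percentile and 0.0557 with the side of the slide as a block.

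*Fosb* (A_44_P1085907, NM_001256509) is the relative of *Fos* whose truncated product ΔFOSB builds up under repeated stimulation. Its log2 intensity was 5.04, 5.32, 5.76 and 5.89 on the AAV-Null arrays and 5.22, 5.73, 5.80 and 4.84 on the AAV-αSyn arrays. The groups covered nearly the same range. The log2 fold change was −0.10 (standard error 0.26, 95% interval −0.71 to 0.51), with p = 0.714 by the exact permutation test, two-sided, and an adjusted p of 0.987 from limma. The sign turned, to 0.0066 after a different background correction (normexp), 0.12 with array weights, 0.028 when AAV-Null replicate 4 was left out and 0.083 when AAV-αSyn replicate 4 was. Of the AP-1 genes among the members, *Fos* and *Junb* were thus at an unadjusted p under 0.05, and *Fosb* had no stable sign.

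*Egr1* (A_64_P082693, NM_012551) encodes a zinc finger factor whose basal level in neurons depends on ongoing synaptic activity. On the AAV-Null arrays its log2 intensity was 8.31, 8.53, 9.74 and 8.11, and on the AAV-αSyn arrays it was 8.46, 9.62, 9.59 and 8.22. AAV-Null replicate 3 and AAV-αSyn replicates 2 and 3 lay between 9.59 and 9.74, whereas the other 5 arrays lay between 8.11 and 8.53. The highest array was 3.09-fold above the lowest, and both belonged to the AAV-Null group. The AAV-Null mean was 8.67 ± 0.73 and the AAV-αSyn mean 8.97 ± 0.74 (SD, n = 4 arrays each). The means differed by 0.30 on the log2 scale (standard error 0.45, 95% interval −0.73 to 1.34; exact permutation p = 0.686, two-sided). This difference was smaller than the spread within either group, and it was 0.59 with array weights. With 1 array left out it ranged from 0.085 (without AAV-αSyn replicate 2) to 0.66 (without AAV-Null replicate 3), and it also moved by over 1.5 times on leaving out AAV-Null replicate 1 (0.18) or 4 (0.11), or AAV-αSyn replicate 1 (0.47), 3 (0.097) or 4 (0.55).

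*Egr2* encodes a factor of the same family, which in glia also drives myelination of peripheral nerve. Its bright probe (A_44_P1164501, NM_053633) was at 5.57, 6.12, 6.04 and 5.71 on the AAV-Null arrays and at 5.83, 5.76, 5.78 and 5.74 on the AAV-αSyn arrays. The AAV-αSyn arrays all lay inside the range of the AAV-Null arrays, with an SD of 0.036 against 0.26. The log2 fold change was −0.08 (standard error 0.13, 95% interval −0.38 to 0.21; exact permutation p = 0.514, two-sided). It was 0.0032 without AAV-Null replicate 2, −0.19 with array weights and −0.028 with normexp. The dim probe (A_42_P473594) was well above background on 0 AAV-Null arrays and 1 AAV-αSyn array, at 2.49, 2.57, 1.28 and 3.20 against 3.38, 3.81, 3.41 and 2.37. No fold is given for it, because even the AAV-αSyn mean of 3.24 lay near the dimmest spots called above background. Those were at 3.23 to 3.62 per array, as single spots before normalisation, so that the comparison is approximate.

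*Npas4* (A_64_P064531, NM_153626) encodes a neuronal factor that is selectively induced by calcium entry. It was not well above background on 8 of 8 arrays, with normalised values of 1.42, 1.38, 1.42 and 1.37 on the AAV-Null arrays and 1.36, 1.71, 1.74 and 1.37 on the AAV-αSyn arrays. The array thus gave no measured level of *Npas4* in either group.

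*Arc* (A_44_P118724, NM_019361) encodes a protein that travels to active synapses and removes AMPA receptors there. Its log2 intensity was 9.39, 9.83, 9.63 and 9.88 on the AAV-Null arrays and 9.71, 10.20, 10.05 and 9.77 on the AAV-αSyn arrays. As for *Fos*, AAV-αSyn replicates 2 and 3 were the highest of the 8 and AAV-αSyn replicates 1 and 4 fell among the AAV-Null arrays. The AAV-Null mean was 9.68 ± 0.22 and the AAV-αSyn mean 9.93 ± 0.23 (SD, n = 4 arrays each). For *Arc* the difference of the means was 0.25 (standard error 0.15, 95% interval −0.094 to 0.59; exact permutation p = 0.2, two-sided). It was 0.15 when AAV-Null replicate 1 was left out and 0.16 when AAV-αSyn replicate 2 was.

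*Dusp1* (A_43_P12927, NM_053769) encodes a phosphatase that switches off MAP kinases after they have fired. It was at 7.37, 6.97, 7.23 and 6.72 on the AAV-Null arrays and at 6.98, 7.42, 7.40 and 7.19 on the AAV-αSyn arrays, with overlapping groups. The log2 fold change was 0.18 (standard error 0.16, 95% interval −0.20 to 0.55; exact permutation p = 0.314, two-sided). It was 0.081 with normexp. With 1 array left out it ranged from 0.058 (without AAV-Null replicate 4) to 0.27 (without AAV-Null replicate 1), with 0.26 when AAV-αSyn replicate 1 was left out. Its promoter and that of *Ier2* are the ones printed with a full CRE.

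*Ier2* encodes a small nuclear protein induced with the AP-1 genes. Its bright probe (A_42_P540950, NM_001009541) was at 10.28, 10.41, 10.21 and 10.28 on the AAV-Null arrays and at 10.23, 10.46, 10.35 and 10.49 on the AAV-αSyn arrays. These values covered 0.28 in all, the narrowest range of the 9 genes. The log2 fold change was 0.08 (standard error 0.085, 95% interval −0.11 to 0.28; exact permutation p = 0.286, two-sided), and the spots of an array, 10 for this probe, had an SD of 0.060. The difference was 0.13 when AAV-αSyn replicate 1 was left out, 0.055 when AAV-Null replicate 3 was, 0.048 when AAV-αSyn replicate 4 was and 0.038 with array weights. The dim probe (A_44_P1158781) was well above background on 2 AAV-Null and 3 AAV-αSyn arrays. It was at 3.70, 3.70, 4.21 and 3.67 against 3.70, 4.31, 3.15 and 3.79. These values lie near the dimmest spots called above background (3.23 to 3.62 per array before normalisation), so that no direction is read from them.

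**Figure D2:**
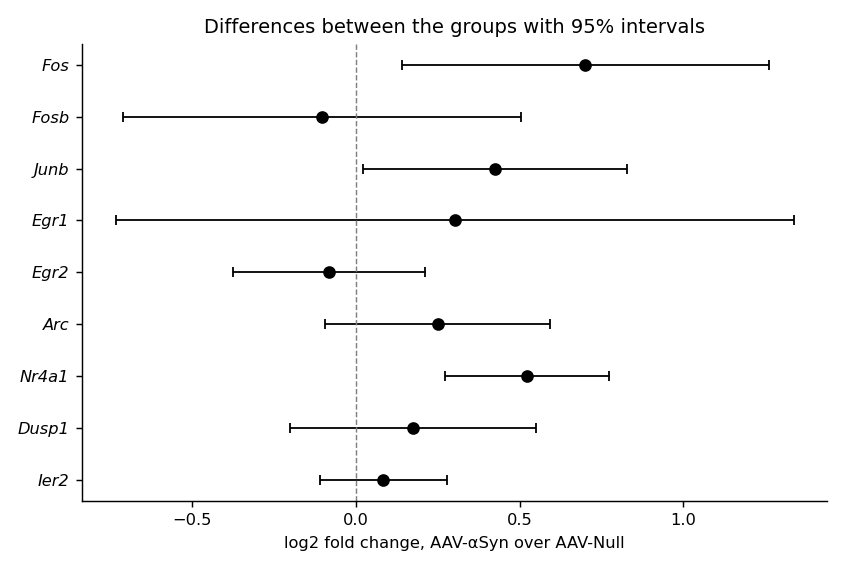
Log2 fold change of each member above background, AAV-αSyn over AAV-Null (4 arrays each), with its 95% interval from limma; each point is the probe that stands for the gene, and the dim *Egr2* and *Ier2* probes are not drawn. The intervals of *Nr4a1*, *Fos* and *Junb* lie above 0, from 0.27, 0.14 and 0.023 upwards, before any adjustment for the number of probes.

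The spread between arrays of a group was itself a property that differed among the members. The SD within groups had a median of 0.251 over the 9 genes, against 0.189 over all probes, and 6 of the 9 lay above the median of all probes. Because dim probes vary more, each gene was also ranked among the probes of like intensity, in 10 classes of equal size. On that scale *Egr1* stood at the 99.3rd percentile with an SD of 0.73, *Fos* at the 93.2nd with 0.39 and *Fosb* at the 90.1st with 0.42. *Ier2* (27.8th), *Egr2* (28.4th) and *Nr4a1* (49.2nd) varied no more than a usual probe of their intensity. For *Fos* and *Arc*, which have 2 spots each, the spots of an array differed by an SD of 0.057, against 0.39 and 0.23 between arrays. The SD was larger in the AAV-αSyn group for 4 of the 9 members and for 29.5% of all probes. The median SDs were 0.29 (AAV-Null) and 0.21 (AAV-αSyn) over the members, and 0.21 and 0.13 over all probes.

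**Figure D3:**
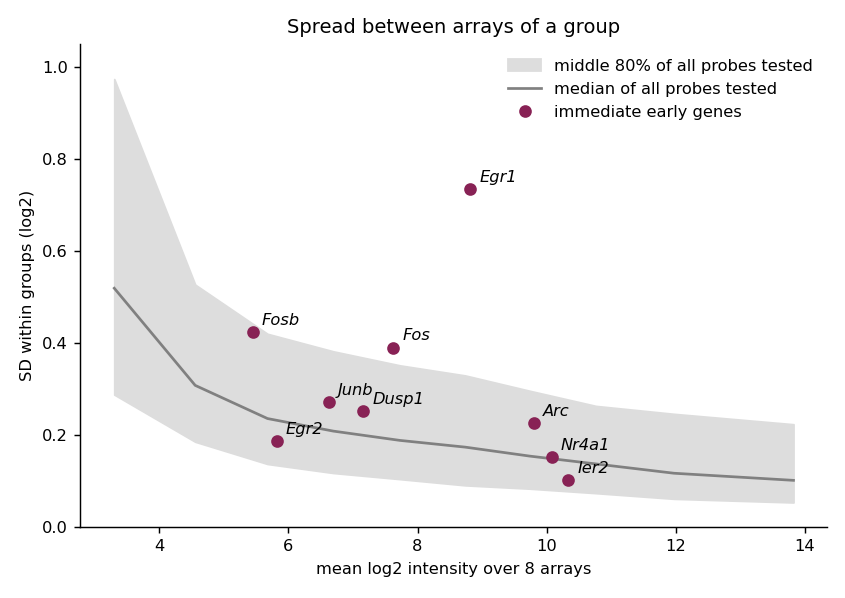
SD within groups of the 9 members against their mean log2 intensity over the 8 arrays; the line is the median and the grey band the middle 80% of all 33853 probes tested, in 10 classes of intensity. *Egr1* (0.73) and *Fos* (0.39) lie above the band, while *Fosb* (0.42) lies just under its upper edge as drawn.

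Arrays were then compared over all members. With each gene's group means removed, the mean over the 9 members was −0.15, 0.10, 0.14 and −0.093 in the AAV-Null group, replicates 1 to 4, and −0.18, 0.22, 0.18 and −0.22 in the AAV-αSyn group. AAV-αSyn replicate 2 had the highest value of the 8 arrays in 4 of the 9 members, and AAV-αSyn replicates 1 and 4 the lowest of their group in 5 and 4. The AAV-Null arrays followed no single order, since *Egr1* was highest and *Fos* lowest on the same array, AAV-Null replicate 3. *Egr1*, with the widest spread, weighs most in these means, and whether the members vary together more than other genes do was not tested.

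Over the 8 arrays, *Fos* was set against each of the other 8 genes, and 7 of the correlations were above 0. None passed adjustment over these 8 relations (exact permutation over 40320 pairings, two-sided). The closest was *Arc*, with Pearson's r = 0.81 (exact p = 0.0154, adjusted 0.0798) and Spearman's rho = 0.83 (exact p = 0.0154, adjusted 0.123). It was 0.72 without the 2 arrays farthest from the median of *Fos* and 0.73 with group means removed. *Nr4a1* had r = 0.80 (exact p = 0.0199, adjusted 0.0798) and rho = 0.71 (exact p = 0.0576, adjusted 0.154), with 0.70 and 0.49 on the same conditions. *Ier2* had r = 0.69 and *Junb* 0.55, while *Fosb* (0.086) and *Egr2* (−0.074) were near 0. These values rested on few arrays. With group means removed *Junb* was at 0.12 and *Ier2* at 0.60, and without the 2 arrays *Junb* was at 0.88, *Ier2* at 0.39 and *Egr2* at 0.53. *Egr1* had r = 0.29 with *Fos* over all arrays, 0.18 with group means removed and 0.84 without the 2 arrays. Its r was 0.73 with *Junb*, a description of a pair outside the 8 relations tested.

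**Figure D4:**
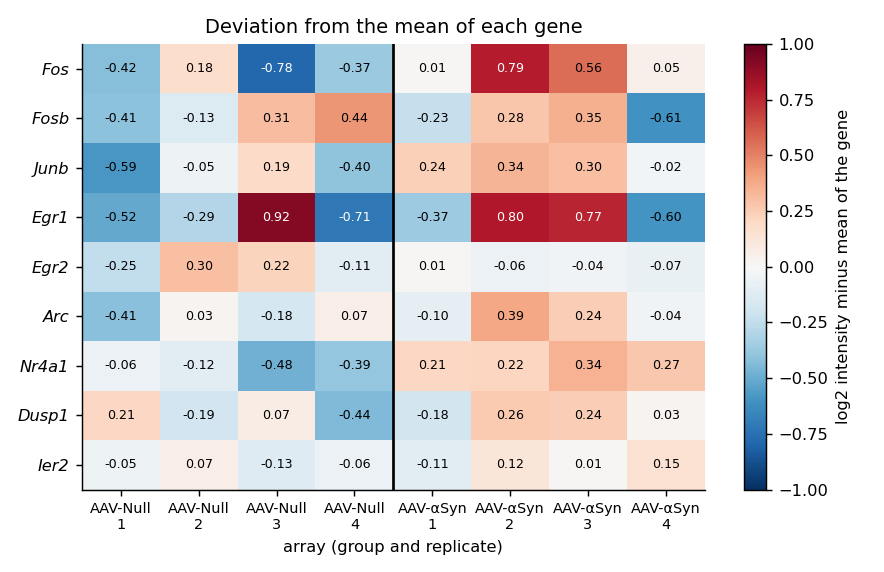
Deviation of each array from the mean of the gene over all 8 arrays, in log2 units, for the 9 members. AAV-αSyn replicates 2 and 3 are above the mean for all members but *Egr2*, *Nr4a1* is above it on all 4 AAV-αSyn arrays, and AAV-Null replicate 3 combines the highest *Egr1* (0.92) with the lowest *Fos* (−0.78).

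Other genes were ranked by how closely they went with the members' mean once group means were removed, among 16145 named probes above background on all arrays. The 10 closest were *Or51e1*, *Ptpn11*, *Mrps15*, *Kctd21*, *RT1-N3*, *Eid2b*, *Fli1*, *Pcp2*, *Tmem95* and *Shox2*, with r from 0.98 down to 0.93 over 8 arrays. *Ptpn11*, for example, had a log2 fold change of 0.04, and *Shox2* one of −0.93. With 8 arrays and this many probes such values are a description of likeness. The lists in the following paragraphs were not made by this ranking, but they were chosen with earlier results of these data known.

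Of 24 other immediate early genes, 4 were at an unadjusted p under 0.05, all with the higher mean in the AAV-αSyn group, and 0 passed the adjustment. In all, 14 were higher and 10 lower, with a median log2 fold change of 0.14. *Nr4a3*, the second orphan receptor of the *Nr4a1* family, was at 6.18, 6.53, 5.92 and 6.13 on the AAV-Null arrays and at 6.97, 6.78, 6.67 and 6.36 on the AAV-αSyn arrays. Its difference was 0.51 on the log2 scale (adjusted p = 0.751, standard error 0.17). Only AAV-αSyn replicate 4 lay within the AAV-Null range. The others were *Zfp36*, which destabilises mRNAs (0.47), *Btg2*, an antiproliferative gene whose groups did not overlap (0.39), and the stress-responsive factor *Atf3* (0.41). Their adjusted p-values lay between 0.751 and 0.844. The count was 1 when AAV-αSyn replicate 1 was left out and 2 when AAV-Null replicate 2 was.

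Relatives of the members in the NR4A, EGR and AP-1 families give further values, and differences between relatives were not tested. *Nr4a2*, the third of the NR4A genes and a factor that dopamine neurons need for their identity, was at −0.38 on the log2 scale (adjusted p = 0.947), opposite in sign to those of *Nr4a1* and *Nr4a3*. Its values were 10.74, 10.32, 9.92 and 10.87 on the AAV-Null arrays and 9.90, 9.94, 10.40 and 10.09 on the AAV-αSyn arrays, which overlapped. *Egr4* was at 0.37 (adjusted p = 0.938), while *Egr3* was above background on only 2 arrays of each group and is given no difference. Of the AP-1 subunits, *Jun* and *Jund* were at 0.13 each (standard errors 0.085 and 0.16), *Fosl1* at −0.36 (0.23) and *Fosl2* at −0.02 (0.089).

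Slower effectors that activity induces after these factors were also listed. Of 20, 1 was at an unadjusted p under 0.05: *Rasd1*, a small G protein induced by glucocorticoids, at −0.61 on the log2 scale (adjusted p = 0.866, standard error 0.25). The median was 0.0057, with 10 higher and 10 lower. *Bdnf*, a neurotrophin and classic target of NPAS4 and CREB, was at 0.10 (standard error 0.19), *Homer1*, a scaffold of the postsynapse, at −0.02 (0.078) and *Nptx2*, which clusters AMPA receptors, at −0.37 (0.18). The count for this list was 0 without a filter on dim probes and with the replicate block, 2 with 75th percentile scaling and with normexp, and 3 with array weights. It also depended on single arrays. Leaving out AAV-Null replicate 2, or any 1 of AAV-αSyn replicates 1, 3 and 4, made it 0, leaving out AAV-Null replicate 4 made it 2, and leaving out AAV-Null replicate 1 made it 3, as did AAV-αSyn replicate 2.

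Of 18 tested genes of the kinases and factors that act upstream, 1 was at an unadjusted p under 0.05. This was *Camk2a*, a calcium-dependent kinase of forebrain neurons, at −0.52 on the log2 scale (adjusted p = 0.851, standard error 0.21). *Creb1* was at −0.13 (standard error 0.16) and *Srf*, which binds CArG boxes, at 0.09 (0.073). The median was 0.023, with 9 higher and 9 lower. Here the count was 0 with 75th percentile scaling, with normexp and with the side of the slide as a block, and 3 with array weights. It was also 0 when AAV-Null replicate 2, or any 1 of AAV-αSyn replicates 1, 3 and 4, was left out. It was 2 when AAV-Null replicate 4 was left out, likewise for AAV-αSyn replicate 2, and 3 when AAV-Null replicate 3 was. Of 5 heat shock genes, which respond to general stress, 0 were at an unadjusted p under 0.05 and 0 passed the adjustment by limma, with log2 fold changes between −0.03 and 0.11.

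**Figure D5:**
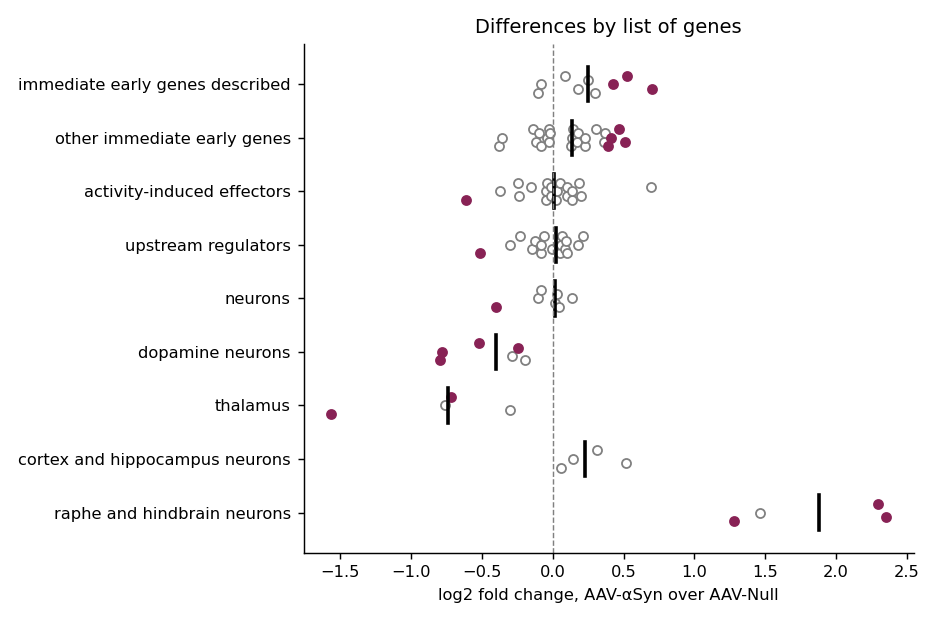
Log2 fold change, AAV-αSyn over AAV-Null, of each tested gene by list, for genes above background on at least 1 array of each group; filled points had an unadjusted limma p under 0.05 and bars are the medians of the genes drawn. The filled points of both immediate early gene lists and, farther out, of the raphe and hindbrain list lie to the right of 0. Those of the dopamine neuron and thalamus lists lie to the left, as does the only filled point of each of the neuron, effector and upstream lists. Over all probes 5.64% were at this level.

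In bulk tissue, fewer cells of a type and less RNA per cell cannot be told apart, and the arrays differed in markers of the cells they held. Of 6 tested dopamine neuron markers, 6 had the lower mean in the AAV-αSyn group and 4 were at an unadjusted p under 0.05, but 0 passed the adjustment. These were *Th* (log2 fold change −0.52, adjusted p = 0.484), the factor *Pitx3* (−0.78, 0.747), the dopamine transporter *Slc6a3* (−0.79, 0.747) and dopa decarboxylase *Ddc* (−0.25, 0.835). The summed level of the list, on a log2 scale, was 17.21 to 17.56 on the AAV-Null arrays and 16.86 to 16.98 on the AAV-αSyn arrays, so that the groups did not overlap. Of 7 general neuron markers, *Syt1* was at an unadjusted p under 0.05 (log2 fold change −0.40, adjusted p = 0.675), and the sums of the list were 16.83 to 17.17 and 16.84 to 17.08.

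Markers of neighbouring regions were measured too. Among 7 markers of raphe and hindbrain neurons, *Slc6a5*, the glycine transporter of hindbrain neurons, passed the adjustment (log2 fold change 1.28, adjusted p = 0.0424), but with the replicate number, which is the row of the slide, as a block 0 probes of the array passed. *Tph2* and *Slc6a4*, the synthetic enzyme and the transporter of serotonin, had log2 fold changes of 2.35 (adjusted p = 0.600) and 2.30 (adjusted p = 0.760). Summed over the 4 genes above background in both groups, the list was at 9.14 to 11.19 on the AAV-Null and 11.19 to 12.56 on the AAV-αSyn arrays, so that AAV-Null replicate 3 and AAV-αSyn replicate 3 had the same level. *Dbh* was well above background on 0 AAV-Null and 3 AAV-αSyn arrays and is left out of this sum. *Hoxb3* and *Hoxb5* were not well above background on any AAV-Null array and are left out as well. Of 4 tested thalamus markers, 4 had the lower mean in the AAV-αSyn group and 2 were at an unadjusted p under 0.05 and 0 passed the adjustment, *Prkcd* (log2 fold change −1.56, adjusted p = 0.785) and *Ntng1* (−0.72, adjusted p = 0.738), with sums of 15.41 to 15.74 and 14.83 to 15.53. The AAV-αSyn group, in which *Nr4a1*, *Fos* and *Junb* had their higher means, thus had a lower sum of the dopamine list on every array, a higher range of the raphe list that met the AAV-Null range, and a lower but overlapping range of the thalamus list. The part of these cells in the members' differences was not tested.

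The thalamus list also went with the members inside the groups. Its mean log2 level was 10.44, 11.38, 11.82 and 11.35 in the AAV-Null group, replicates 1 to 4, and 10.14, 10.78, 10.62 and 10.11 in the AAV-αSyn group. By this mean, replicates 2 and 3, which had the higher group-centred mean of the members, lay above replicates 1 and 4 in both groups. AAV-Null replicates 2 and 4 were close (11.38 and 11.35). With group means removed, its r with the members' mean was 0.80 over 8 arrays, the highest of the 10 lists of cell and region markers, by mean level, whose other values lay between 0.090 and 0.55. Taken by its summed level, the thalamus list had r = 0.76. The order was then different in the AAV-Null group, where replicate 4 was the highest (15.41, 15.64, 15.67 and 15.74 in replicates 1 to 4). Among the pathway lists, the upstream regulators had r = 0.83 by their mean and 0.62 by their sum, and the activity-induced effectors 0.42 and 0.70. The other immediate early genes had r = −0.25 by their mean and 0.52 by their sum, so that their sign depended on the measure. As read from the barcodes, replicates 2 and 3 are also the middle rows of the slide in both groups. The part of thalamic tissue or of slide position in the members' spread was not tested.

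The remaining lists showed no probe at an unadjusted p under 0.05 and 0 past the adjustment by limma. These were astrocytes, oligodendrocytes and microglia (6 genes each) and endothelium and blood (5 genes each). Markers of cortex and hippocampus neurons (6 tested) also had 0 at either level, with sums over the 4 above background in both groups of 13.71 to 13.88 and 13.77 to 13.91. *Slc17a7*, the vesicular glutamate transporter of these neurons, was above background on 1 AAV-Null and 2 AAV-αSyn arrays.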

How the data were processed

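The authors' deposited scanner files give, per spot, the intensity after background correction by Feature Extraction and flags for outliers and for spots well above background. The authors also deposited a matrix of quantile normalised log2 values. The software version is 11.5.1.1 in the submitters' processing notes and 12.0.3.2 in the file headers. In R 4.3.3 (limma 3.58.1, statmod 1.5.0, and data.table for reading), control spots (4259) and outlier spots (268 to 418 per array) were left out. A probe was taken as above background where a share of 0.5 or more of its spots on that array carried the flag, and 33853 of 45598 probes passed on at least 1 array. Log2 intensities were quantile normalised, averaged per probe and compared with lmFit and eBayes, 4 arrays against 4, and p-values are two-sided. The procedure was tested on simulated data. A table of RefSeq accessions (build GRCr8) named 21229 probes. No spot was saturated, and the number of arrays limits the precision.

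All members are named with every probe. Of the other lists, genes at an unadjusted p under 0.05 (at most 5 per list) and some defining markers are named, as are the 10 probes closest to the members' group-centred mean. The other family members (AP-1, EGR, NR4A), *Bdnf*, *Homer1*, *Nptx2*, *Creb1* and *Srf* were named after their values were seen. Members and lists were chosen with earlier results of these data known. As alternatives, 12 other settings of scaling, background correction, filter, source of values, variance model and block were run, and 8 fits left out 1 array each. Exact permutation tests used all 70 splits. Other experiments of the study were not analysed here. Other markers that the rule for names selects are not reported here.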

Additional observations from a re-analysis of the deposited data

Results flagged for a closer look

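The dim *Ier2* probe (A_44_P1158781) read 4.21 on AAV-Null replicate 3, where replicates 1, 2 and 4 of that group read 3.67 to 3.70. The gap to the nearest array was 0.935 of the range of the group, above the critical value of Dixon's test for 4 samples. Chance marks about 1 in 20 groups, or 2.6 of the 52 groups examined, and this was the 1 found. Only 2 arrays of that group had the probe well above background.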

How the results depend on the processing

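No member probe passed the adjustment under any of the 12 processing alternatives or the 8 fits with 1 array left out. The count at an unadjusted p under 0.05 was 2 to 3 under the alternatives and 1 to 4 with 1 array left out, and the median log2 fold change of the members was 0.22 to 0.26 and 0.11 (without AAV-Null replicate 4) to 0.32. The count of correlations with *Fos* past the adjustment was 0 in every fit run. *Nr4a1* kept an unadjusted p under 0.05 in all 20 fits (0.00028 to 0.0080 under the alternatives, adjusted p 0.146 to 0.678, and 0.00083 to 0.0053 with 1 array left out). Its groups did not overlap in any of them. For many fits this was fixed beforehand, since leaving out an array does not by itself make separated groups overlap. The variance models, weights and blocks leave the values unchanged. *Fos* kept an unadjusted p under 0.05 in 11 of 12 alternatives and 5 of 8 fits with 1 array left out, *Junb* in 10 and 3.

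The median percentile of the members' spread, 66.7 as reported, was 73.7 with 75th percentile scaling, 75.8 with normexp, 61.6 without a filter, 70.8 and 74.8 with probes above background on at least 4 or all 8 arrays, 72.0 with array weights, 62.3 with the side of the slide as a block, and 61.5 to 73.7 with 1 array left out. The cause was not tested. The sign of *Fosb* turned with normexp (0.0066), array weights (0.12), when AAV-Null replicate 4 was left out (0.028) and when AAV-αSyn replicate 4 was (0.083), and that of *Egr2* without AAV-Null replicate 2 (0.0032). Its range with 1 array left out was −0.18 to 0.0032, and that of *Fosb* −0.26 to 0.083.

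Same-numbered arrays lie in the same row of the slide. Their deviations from the group means correlated with r = 0.14, 0.27, 0.041 and −0.0022, not over 0.1 in every pair, so the arrays were not treated as pairs. With the replicate block, 3 member probes were at an unadjusted p under 0.05, the median percentile of spread was 62.0, and over all probes 0 passed the adjustment (2218 at an unadjusted p under 0.05) against 5 (1908). Array weights gave 10 (4503), and leaving out 1 array gave 3 to 5 (1439 to 2800). Dim probes limit what could be measured for *Npas4*, the second *Egr2* probe and the second *Ier2* probe.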
